A study of Lithospermum officinale with 3 samples.

Results

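Of the 77047 unigenes measured in 3 organs of *Lithospermum officinale*, a plant of the borage family, namely its leaf, stem and root, 84 were abundant and took up nearly the same share of the counts outside the 100 most counted unigenes in all 3 libraries. A unigene is a transcript sequence assembled from the reads without a genome. Members were chosen on their expected counts, which are the reads that RSEM assigned to each unigene. Those 100, the unigenes with the largest summed count, were set aside first, and each remaining count was divided by the sum of counts outside them in its library. A member had at least 300 expected counts in every library, and its largest scaled count was at most 1.5 times its smallest. Of the 290 unigenes outside the 100 most counted that met the count floor, 84 (29.0%) met the limit. These counts chose the members, so their evenness is described here and not tested. The other 206 unigenes past the floor serve as the comparison.

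Leaf, stem and root came from untreated 2-year-old plants grown outdoors, with 1 library per tissue, so there is no spread between replicates and no organ could be tested against another. The labels do not say how many plants were pooled or whether 1 plant gave all 3 organs. Tissue identity could not be checked against marker genes, because the unigene IDs come without gene names. Counts outside the 100 most counted unigenes numbered 1432056 in leaf, 2525988 in stem and 4351427 in root, of 3490670, 4469828 and 10045956 in all. Intervals given for ratios are exact conditional binomial 95% intervals and cover counting error only. Molecular identifiers were not used here, so copies of 1 molecule count as separate reads.

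Transcripts that every organ needs, such as those for ribosomes, the cytoskeleton, protein turnover and core carbon metabolism, are often called housekeeping transcripts. They tend to lie at similar levels across organs and are a usual source of internal references for quantitative PCR. Sequencing measures shares of a library and not amounts per cell, so a transcript looks even only relative to whatever the library was scaled to. None of the 84 unigenes can be assigned to a housekeeping function here, since no name, sequence or annotation was used for them. In whole organs, less RNA of a transcript per cell and fewer cells that contain it cannot be told apart.

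The most even unigene was Unigene2732 (1395 nt), with 976 expected counts in the leaf library, 1714 in stem and 3002 in root. Per 1000000 counts outside the 100 most counted, a quantity called the scaled count from here on, this was 682 in leaf, 679 in stem and 690 in root. The 3 scaled counts lay within a factor of 1.02, and root was highest by a margin smaller than the counting error. The ratio of leaf to root was 0.988 (0.918 to 1.06) and that of stem to root 0.984 (0.926 to 1.04). Unigene9600 (1200 nt) had scaled counts of 226 in leaf, 230.0 in stem and 228 in root, also within 1.02-fold, from 323, 581 and 990 expected counts. Unigene9012 (2330 nt) had 574 in leaf, 594 in stem and 594 in root. In neither was a difference between organs detectable at this depth, and their leaf to root intervals were 0.872 to 1.13 and 0.893 to 1.05.

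The next unigenes in order of evenness were Unigene40368, Unigene51274, Unigene5538, Unigene3881, Unigene30641, Unigene2627 and Unigene29849, with largest over smallest scaled counts of between 1.08 and 1.12. They covered a wide span of levels, between 216 and 698 scaled counts in leaf, 196 and 629 in stem, and 216 and 689 in root. Unigene5538 (2502 nt) was the least abundant of these, with 309, 495 and 938 expected counts in leaf, stem and root. Unigene2627 (1233 nt) was the most abundant, with 999, 1590 and 2997.

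**Figure D1:**
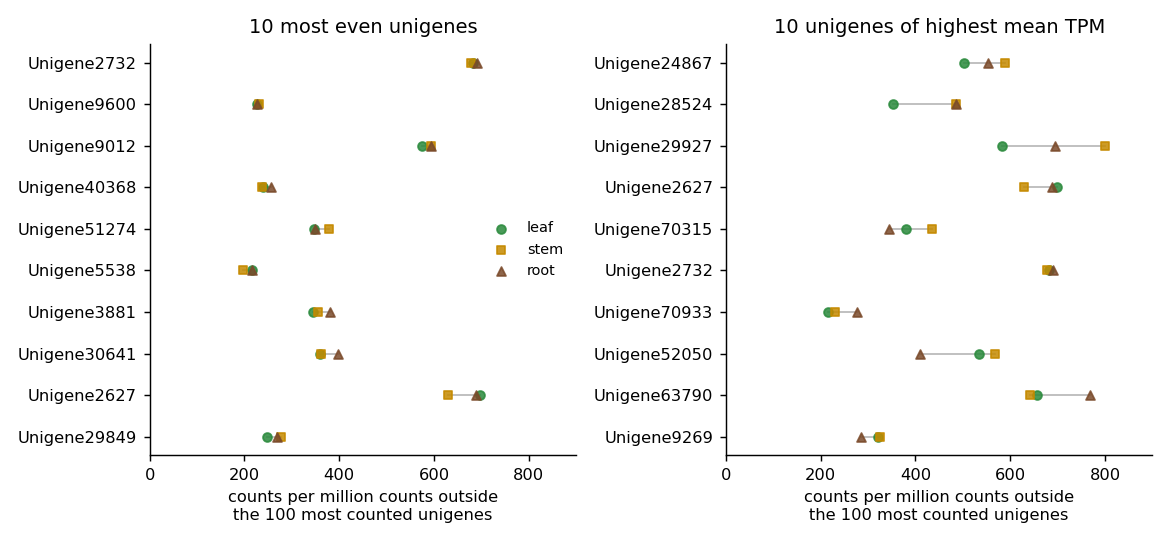
Scaled counts (counts per 1000000 counts outside the 100 most counted unigenes) of the 10 most even unigenes (left) and the 10 of highest mean TPM (right), with 1 point per library. For Unigene2732 the 3 points lie between 679 and 690, and for Unigene29927 they spread between 582 in leaf and 800 in stem.

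In all, 5 members lay within a factor of 1.1, 23 within 1.2, 41 within 1.3 and 68 within 1.4, with a median of 1.31. Counting error limits how finely these can be ranked: the upper end of the leaf to root interval was between 1.15 and 1.31 times its lower end. For 9 members all 3 pairwise intervals included equality, and 9 of the 290 unigenes past the floor (3.1%) did so. These were Unigene2732, Unigene9600, Unigene9012, Unigene40368, Unigene51274, Unigene5538, Unigene3881, Unigene29849 and Unigene3540. They were named after their values were seen where the naming rule did not give them. In 52 members all 3 intervals lay wholly within 1.5-fold, and the remaining 32 met the limit by their point values but not by their intervals. Of the 290 past the floor, the same 52 made up 17.9%. For leaf and root, 26 members had an interval that held equality (28 of the 290, 9.66%), 20 lay wholly above it (152 of the 290, 52.4%) and 38 wholly below (110, 37.9%). For stem and root, 28 members held equality (32 of the 290, 11.0%), 22 were above (153, 52.8%) and 34 below (105, 36.2%). For leaf and stem, 36 held equality (64 of the 290, 22.1%), 17 were above (116, 40.0%) and 31 below (110, 37.9%). In all 3 pairs more members lay below equality than above it, so on this scale root leaned high and leaf low within the limit. In 17 members every pair of organs was separated beyond counting error (189 of the 290). Another 53 had 2 separated pairs (87 of the 290) and 5 had 1 (5 of the 290). Most members were therefore close in level without being identical in the 3 libraries.

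Unigene70443 (2491 nt), at the edge of the limit, had scaled counts of 249 in leaf, 262 in stem and 374 in root, a factor of 1.499. Unigene76714 (1807 nt) was just inside at 1.49 in the opposite direction, with 253 in leaf, 194 in stem and 170 in root. Unigene56567 (1505 nt) followed at 1.48, with 262 in leaf, 280 in stem and 389 in root. Just outside stood Unigene28493 at 1.51, Unigene2771 at 1.52 and Unigene63813 at 1.52. Unigene28493 had 244, 303 and 368 scaled counts in leaf, stem and root, and its leaf to root ratio lay within the interval of that of Unigene70443. At the count floor, the members with the fewest leaf counts were Unigene55387 with 302, Unigene3540 with 304 and Unigene10907 with 305. Unigenes that met the evenness limit but fell just short of the floor in leaf were Unigene34714 with 298, Unigene64035 with 293 and Unigene63942 with 292.

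The floor was set by the leaf library, which was the shallowest. A count of 300 corresponds to a scaled count of 209 in leaf, 119 in stem and 68.9 in root, so every member stands above 209 in leaf, with a lowest value of 211. The summed counts of the members ran between 1506 and 5902, below the 6645 at which the 100 most counted unigenes begin. Outside the 100, 667 unigenes had a summed count in the members' range, and 245 of these passed the floor. Of the 667, 337 were under 300 counts in the leaf library, 91 in stem and 87 in root, and 245 were under it in leaf alone. Ignoring the floor, 121 of the 667 met the evenness limit, and the 37 that were not members were all short of 300 counts in leaf.

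Among the members, root was the organ of highest scaled count more often than the shoot organs. Leaf was highest for 17 members, stem for 26 and root for 41, while leaf was lowest for 40, stem for 25 and root for 19. Root was highest for 49 members with TMM or DESeq2 scaling and 56 with upper quartile scaling, but for 11 on total counts, where stem was highest for 71. Leaf was lowest for 40 members and stem for 27 with TMM, 35 and 31 with DESeq2, and 35 and 38 with upper quartile scaling. On total counts leaf was lowest for 61. By scaled count the other unigenes past the floor had another balance, with 105 highest in leaf, 34 in stem and 67 in root. Over all 290 unigenes past the floor, 42.1% were highest in leaf, 20.7% in stem and 37.2% in root, and 36.2% were lowest in leaf, 13.8% in stem and 50% in root. The limit on evenness applies to both directions, but the floor acts mainly in leaf, so these counts describe the selected unigenes and not the organs. The geometric mean of the scaled counts of the 84 was 319 in leaf, 334 in stem and 344 in root. The members' median log2 ratio of scaled counts was -0.12 for leaf over root, -0.09 for stem over root and -0.09 for leaf over stem. For the 290 past the floor the medians came to 0.21, 0.21 and -0.00021. After stem and root were thinned to the leaf total, 166 unigenes passed the floor, and their medians were -0.44, -0.21 and -0.20. Those of the 84 members were then -0.13, -0.07 and -0.08, so the direction of this contrast depended on depth. The members' log2 ratios were spread about equally in the 3 pairs, with an SD across unigenes of 0.30 for leaf over root, 0.28 for stem over root and 0.25 for leaf over stem. In the other 206 this SD was 1.48, 1.17 and 0.64, so in this set leaf and stem were closer to each other than either was to root. The floor lies at a scaled count of 209 in leaf and 68.9 in root, which leaves more room for low values in root. These spreads therefore describe the unigenes past the floor and not the organs. The limit bounds the members' ratios in every pair, so their narrower spread follows from the rule.

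**Figure D2:**
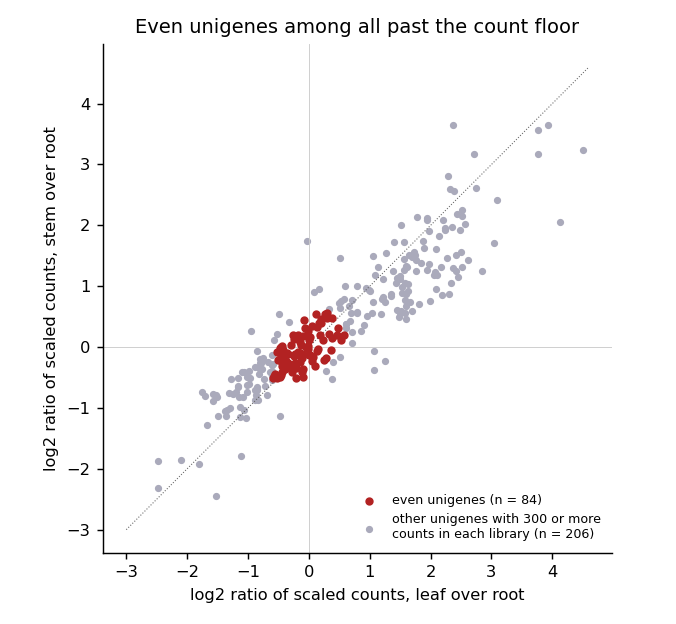
Log2 ratio of scaled counts of leaf over root (x axis) and stem over root (y axis) for the 84 even unigenes and the other 206 past the count floor, with 1 point per unigene. The others run along the dotted line of equal leaf and stem levels, up to 4.51 on the x axis, and the even unigenes fill the area around 0, between -0.58 and 0.58 on the x axis.

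Pairwise, 215 of the 290 unigenes past the floor (74.1%) were within 1.5-fold between leaf and stem, 140 (48.3%) between stem and root and 102 (35.2%) between leaf and root. Of the 206 others, 131 were level between leaf and stem, 56 between stem and root and 18 between leaf and root. Leaf and root were the pair in which the fewest unigenes were level. The floor lies lower on the scaled count in root than in leaf, so these numbers also describe the selected unigenes and not the organs. The position of stem also differed. Stem lay between leaf and root for 33 of the 84 members (39.3%) and for 157 of the 206 others (76.2%). Stem was between the others for 37, 34 and 31 members with TMM, DESeq2 and upper quartile scaling, but for 13 on total counts or deposited FPKM and 66 on deposited TPM. Among the others it was 156 with each of the first 3 scalings, 110 on total counts, 109 on FPKM and 115 on TPM. This share was not tested, because the limit on evenness itself removes unigenes with a steep gradient.

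Within the limit, single members still leaned to 1 organ. The members leaning most to leaf against root were Unigene76714, with a leaf to root ratio of 1.49 (1.31 to 1.69), and Unigene4397 (707 nt) with 1.44 (1.28 to 1.62). Unigene4397 had scaled counts of 288 in leaf, 217 in stem and 200.2 in root, so leaf was high, and stem and root did not differ beyond counting error. The lowest ratios of leaf to root were those of Unigene70443, 0.667 (0.593 to 0.749), and Unigene56567, 0.673 (0.601 to 0.754). In both, root was high, and leaf and stem did not differ beyond counting error, with leaf to stem intervals of 0.834 to 1.08 and 0.822 to 1.06.

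Stem stood highest against root in Unigene53356 (3599 nt), with a ratio of 1.47 (1.37 to 1.57), and in Unigene52967 (1671 nt), with 1.46 (1.37 to 1.55). Unigene52967 had 593 scaled counts in the leaf library, 797 in stem and 547 in root, a peak in stem with leaf and root closer to each other. Its leaf to root interval, 1.0002 to 1.17, lay just above equality. At the other end, after Unigene70443, came Unigene64314 (3333 nt), with a stem to root ratio of 0.703 (0.637 to 0.775). Between the shoot organs, leaf was highest relative to stem in Unigene17847 (1740 nt), at 1.39 (1.26 to 1.53), and in Unigene28304 (5048 nt), at 1.38 (1.24 to 1.53). Scaled, the counts came to 517 in leaf, 373 in stem and 434 in root for the first, and 453, 329 and 374 for the other, so both were lowest in stem. The lowest leaf to stem ratios were 0.697 (0.611 to 0.793) in Unigene64105 (1045 nt) and 0.723 (0.637 to 0.820) in Unigene29654 (1644 nt). Unigene64105 was highest in stem, at 327 scaled counts against 228 in leaf and 239 in root. In Unigene29654 stem and root were level at 339 and 341, with leaf at 245.

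All 6 possible orders of the organs occurred. Written from high to low, root, stem, leaf was the order of 26 members, root, leaf, stem of 15, stem, root, leaf of 14, stem, leaf, root of 12, leaf, root, stem of 10 and leaf, stem, root of 7. Of the 17 members whose 3 pairs were all separated beyond counting error, 6 had the order stem, leaf, root, 4 root, stem, leaf and 3 leaf, stem, root. Over all 290 past the floor, 189 were separated in this way, with 29, 52 and 91 in the same orders. In the other 206 unigenes, leaf, stem, root (98) and root, stem, leaf (59) were the usual orders.

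Evenness on the deposited TPM, which divides counts by effective length and scales every library to the same sum, was different. All 84 members were lowest in leaf on TPM, 18 were highest in stem and 66 in root. Of the other 206, 53 were highest in leaf on TPM, 80 in stem and 73 in root. That no member had more TPM in leaf than in root follows from the rule. The change of scale between leaf and root, given below, is larger than the limit of 1.5-fold. Their geometric mean was 67.6 TPM in leaf, 100.4 in stem and 119 in root, and the largest TPM was a median of 1.8003 times the smallest. Only 13 of the 84 (15.5%) stayed within 1.5-fold on TPM, and 33 of the 290 past the floor (11.4%) did so. On deposited FPKM, which divides by all counts of the library, stem was highest for 71 members, root for 11 and leaf for 2. For the other 206 these numbers were 92, 53 and 61. The geometric means were 73.8 FPKM in leaf, 106 in stem and 83.7 in root. Of the members, 42 (50%) were within the limit on FPKM, and 46 of all 290 (15.9%). Unigene2732 illustrates the 3 scales. It had scaled counts of 682 in leaf, 679 in stem and 690 in root, but 229, 314 and 244 FPKM, and 210, 297 and 346 TPM.

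**Figure D3:**
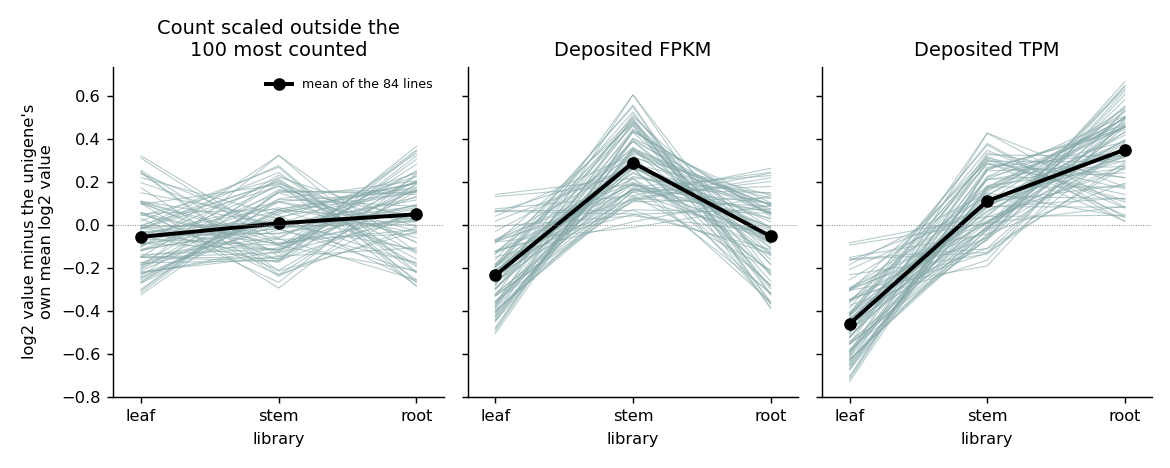
Profiles of the 84 even unigenes over leaf, stem and root on 3 scales, as log2 value minus the unigene's own mean log2 value, with the mean of all lines in black. The mean is nearly flat on counts scaled outside the 100 most counted unigenes, peaks in stem on deposited FPKM and climbs through leaf, stem and root on deposited TPM.

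The shift was common to all members and followed the share of each library left to unigenes outside the 100 most counted. Those 100 took up 59.0% (leaf), 43.5% (stem) and 56.7% (root) of the expected counts, and unigenes outside them held 37.3%, 52.4% and 59.9% of the TPM in leaf, stem and root. After the TPM of each library was divided by its sum without the 100, 82 of the 84 were within the limit, and 84 of the 290 past the floor (29.0%) were. This quantity is nearly the scaled count that chose the members, so it is no separate check of evenness. The 2 exceptions, Unigene56567 at 1.51 and Unigene70443 at 1.52, were near the edge of the limit on counts and had root highest. Unigene76714, also near the edge but with leaf highest, stayed inside at 1.47. Effective length differed little between libraries and was shorter than in root by a median of 1.24 nt in leaf and 1.15 nt in stem. Relative to counts scaled outside the 100, deposited TPM moved log2 ratios by a median of -0.71 for leaf over root, -0.20 for stem over root and -0.51 for leaf over stem.

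The unigenes that were even on deposited TPM were largely other ones. They numbered 33, of which 13 (39.4%) were members and 20 were not. Of the 20, 18 had their highest scaled count in leaf, and their largest over smallest scaled count ran between 1.52 and 2.39. Of the 13 members even on TPM, 12 were highest in leaf by scaled count. Unigene76714 had the most even TPM of any member, 58.3 in leaf, 63.5 in stem and 63.7 in root, a factor of 1.09, although it was nearly the least even by scaled count. Unigene4397 came next, with 203, 217 and 230 TPM, a factor of 1.13. Only 10 of the 290 unigenes past the floor were within 1.5-fold on scaled count, TPM and FPKM alike.

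**Figure D4:**
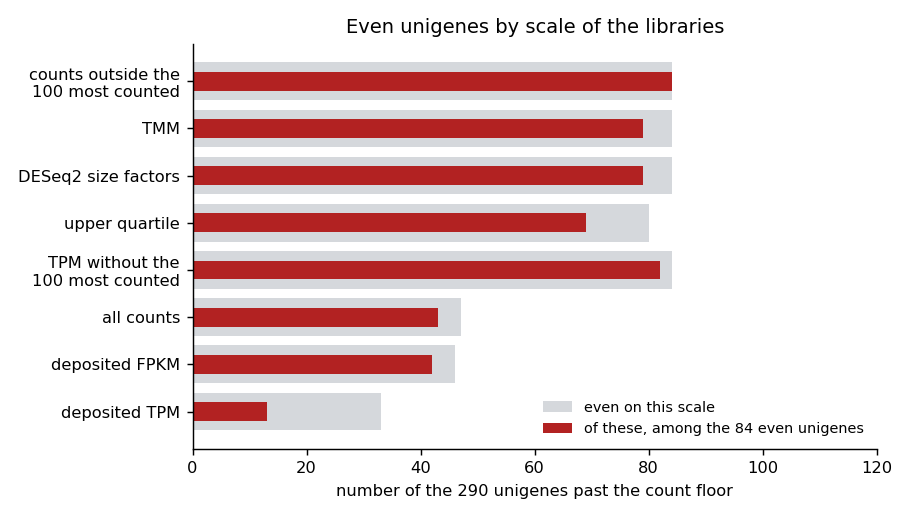
Number of the 290 unigenes past the count floor that were within 1.5-fold in all 3 libraries on each of 8 scales (grey bars), and how many of them were among the 84 even unigenes (red bars). The number is between 80 and 84 on the first 5 scales, against 47 on all counts, 46 on deposited FPKM and 33 on deposited TPM.

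The place of a unigene in its own library does not depend on how libraries are scaled to each other. Ranked by TPM among all 77047 unigenes, Unigene2732 was number 164 in leaf, 153 in stem and 161 in root. Unigene2627 was number 138, 142 and 135 in the same order. Both were among the members of highest mean TPM. The members' median rank was 699 in leaf, 616.5 in stem and 621.5 in root. Their ranks ran between 100 and 8973 in leaf, 77 and 7244 in stem, and 91 and 6626 in root. Members were thus abundant by count, but not all of them were per unit of length. Over the 84 members the largest of the 3 ranks was between 1.05 and 1.86 times the smallest, with a median of 1.38. In the other 206 the same factor had a median of 3.26 and reached 43.7. Ranks come from the same counts that chose the members, so this describes the selection and adds no separate evidence.

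Per unit of length the members spanned a wide range of abundance. Their TPM ran between 7.76 and 353 in leaf, with a median of 62.7, between 13.3 and 588 in stem, with a median of 96.8, and between 16.3 and 633 in root, with a median of 125. At 100 TPM or more stood 27 members in leaf, 41 in stem and 47 in root. The highest mean TPM belonged to Unigene24867 (708 nt), with 353 TPM in leaf, 588 in stem and 633 in root. On scaled counts it had 502 in leaf, 588 in stem and 553 in root, within 1.17-fold, and only leaf was set apart beyond counting error. Unigene28524 (694 nt) had 255, 498 and 570 TPM in leaf, stem and root, and scaled counts of 353, 485 and 485, so stem and root lay together and leaf lower. Unigene29927 (1180 nt) had 217, 425 and 423 TPM, and scaled counts of 582, 800 and 695 in leaf, stem and root.

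The remaining 7 of the 10 most abundant by TPM were Unigene2627, Unigene70315, Unigene2732, Unigene70933, Unigene52050, Unigene63790 and Unigene9269. They had between 169 and 247 TPM in leaf, 235 and 375 in stem, and 243 and 398 in root. Unigene2732 and Unigene2627 were the 2 unigenes among both the 10 most even and the 10 most abundant members. Unigene63790 (1634 nt) had the largest summed count of all members, from 939 counts in the leaf library, 1623 in stem and 3340 in root, and was 1.19-fold apart with root highest. The next largest sums were those of Unigene29927, Unigene2732, Unigene2627 and Unigene65098 (2405 nt), the last with 931, 1830 and 2808 counts and a factor of 1.12.

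Members together held 41423 counts in the leaf library, 77089 in stem and 134729 in root. This was 2.89% of the counts outside the 100 most counted in leaf (exact binomial 95% interval 2.87% to 2.92%), 3.05% in stem (3.03% to 3.07%) and 3.10% in root (3.08% to 3.11%). The other 206 held 8.46%, 7.62% and 6.45% in the same order. The rule limits how far these shares of the members can differ. Of all counts, the members held 1.19% in leaf, 1.72% in stem and 1.34% in root.

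Length was not part of the rule, though a floor on counts favours long unigenes. The members' median length was 1947 nt and that of the other 206 was 1719.5 nt. Over 3000 nt were 21 of the 84 members (25%) and 30 of the 206 others (14.6%), and over 5000 nt 5 members and 8 others. By length class, the share of unigenes past the floor that were even was 30.3% under 1000 nt (10 of 33), 21.6% from 1000 to under 1500 nt (16 of 74), 25.7% from 1500 to under 2000 nt (19 of 74), 31.0% from 2000 to under 3000 nt (18 of 58), 42.1% from 3000 to under 5000 nt (16 of 38) and 38.5% from 5000 nt (5 of 13). The exact binomial 95% interval was 12.9% to 32.7% for the lowest of these shares and 26.3% to 59.2% for the highest, and a relation with length was not tested. By smallest count the shares were 28.1% (41 of 146) from 300 to under 400 counts, 23.3% (20 of 86) from 400 to under 600, 43.1% (22 of 51) from 600 to under 1000 and 14.3% (1 of 7) from 1000. By mean TPM they ran between 24.6% (14 of 57, from 200 TPM) and 33.7% (31 of 92, from 50 to under 100 TPM), without an order.

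The longest members were Unigene9102 (12381 nt) and Unigene3526 (11585 nt), and they were also among the lowest per length. Unigene9102 had 361, 769 and 1415 counts in leaf, stem and root, which was 7.76, 13.3 and 16.3 TPM. Unigene3526 had 392, 752 and 1401 counts, and 9.01, 13.9 and 17.3 TPM in leaf, stem and root. Both had scaled counts that were lowest in leaf and highest in root, within 1.29-fold and 1.18-fold. Unigene51061 (7741 nt) was 1.13-fold apart on scaled counts and 1.85-fold on TPM, and Unigene3526 was 1.92-fold apart on TPM. The shortest members, Unigene70933 (630 nt) and Unigene28524, were among the 10 of highest mean TPM. Unigene70933 had 310, 582 and 1201 counts in leaf, stem and root, and 178, 270 and 370 TPM. It was 1.27-fold apart on scaled counts and 2.08-fold on TPM, so the gap between the 2 scales was not particular to long members.

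**Figure D5:**
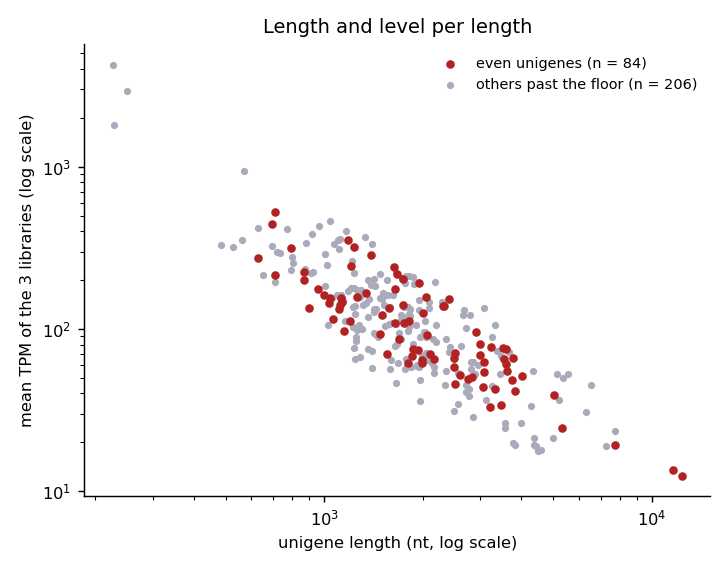
Length (x axis, nt, log scale) and mean TPM over the 3 libraries (y axis, log scale) of the 84 even unigenes and the other 206 past the count floor. Points fall along a band because the floor is on counts, and the even unigenes run along its whole span above 630 nt.

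A few members had a neighbour in the unigene numbering that was also abundant, which the files show only through the numbers. Unigene53355 (3540 nt) and Unigene53356 (3599 nt) were the only members with consecutive numbers. Unigene53355 had 613, 1316 and 1557 counts in leaf, stem and root, and Unigene53356 had 738, 1549 and 1817, so both were highest in stem, with stem to root ratios of 1.46 and 1.47. Just before these, at a distance of 2, stood another member, Unigene53353 (3525 nt), with 712, 1507 and 1877 counts and a stem to root ratio of 1.38. Between them, Unigene53354 (3466 nt) had 696, 1348 and 1486 counts and lay just past the limit, at 1.56. These 4 were alike in length, level and order of organs, and whether they come from separate genes was not tested, so they may not be 4 independent unigenes. Unigene52050 (1209 nt), with 764, 1436 and 1785 counts, follows Unigene52049 (1437 nt), one of the 100 most counted, with 1915, 4006 and 4724 counts. Both were lowest in root, with largest over smallest scaled counts of 1.39 and 1.46.

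Consecutive numbers did not always go with like profiles. Unigene29416, a member, precedes Unigene29417 (3659 nt), which had 382, 2313 and 1188 counts in leaf, stem and root and was 3.43-fold apart. Unigene27807, also a member, follows Unigene27806 (1959 nt), which was 3.18-fold apart with 324, 302 and 310 counts. A neighbour past the floor was found for 8 of the 84 members (9.52%) and 26 of the 206 others (12.6%).

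Evenness by the same limit was less frequent among the 100 most counted unigenes. They were chosen by summed count, to which the root library contributed most, and were left out of the scale, so this describes that choice. Of these, 83 had 300 or more counts in each library and 6 were within 1.5-fold, against 84 of the 290 (29.0%). The 6 were Unigene69907, Unigene42141, Unigene41834, Unigene52049, Unigene3689 and Unigene34355. These 6 were named after their values were seen. Unigene3689 (1582 nt) was the most even, at 1.27, with 1467, 2189 and 3518 counts in leaf, stem and root. Unigene69907 (1891 nt) was the most counted, with 13019, 28747 and 57224, and was 1.45-fold apart.

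Ratios between members are free of the library scale. The limit on evenness bounds them in advance, so they describe the selection and do not test how well members track each other. For each member, the SD over the 3 libraries of its log2 ratio to each other member was averaged over those members. This mean SD ran between 0.18 and 0.38 with a median of 0.24. The lowest belonged to Unigene3881 (1816 nt) at 0.181, with scaled counts of 344 in leaf, 354 in stem and 380 in root, followed by Unigene51061 at 0.182 and Unigene30641 (1582 nt) at 0.183. The highest belonged to Unigene76714 at 0.379 and Unigene4397 at 0.362, the members leaning most to leaf against root. These 5 were singled out after their values were seen. A low value says that a member lies near the centre of the selected unigenes and not that its amount per cell was constant.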

How the data were processed

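RNA of leaf, stem and root was sequenced from oligo(dT)-captured messenger RNA with a strand-specific kit, 1 library each, per the labels' protocols. The submitters' processing notes list Trimmomatic and RSEM with no version. Which assembler, aligner and annotation were used is not given in the sources used here. Each deposited table holds expected counts, TPM and FPKM made by the authors, per the file headers. The expected counts were deposited as whole numbers (0 exceptions), and reads of near-identical unigenes may have been split or dropped. The deposited merged table of FPKM differed from the library tables in 0 values. TPM recomputed from counts and effective length differed from the deposited TPM by at most 0.0415% for members.

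Expected counts were used as whole numbers. The 100 unigenes of largest summed count were left out of the scale. Ratios have exact conditional binomial 95% intervals, and shares exact Clopper-Pearson ones (scipy 1.17.1, numpy 2.4.6, pandas 2.3.3, Python 3.11.15, figures with matplotlib 3.10.9). edgeR 4.0.16 and DESeq2 1.42.0 (R 4.3.3) gave scaling factors alone, since 1 library per tissue leaves no spread to test against. The interval code was checked on simulated data. Unigenes were named by rule: the 10 of highest mean TPM, the 10 most even, the 2 highest and 2 lowest ratios per pair, the 3 on either side of each threshold, the 2 longest and 2 shortest, the 2 with the largest quotient of the TPM factor to the count factor, the longest run of numbers and the 5 of largest summed count. The members and rules were chosen with earlier results of these data known. No gene list was tested, as the files do not pair IDs with names.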

Additional observations from a re-analysis of the deposited data

How the results depend on the processing

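Of 189 summary values recomputed under another setting, 69 stayed within 1.5 times the value given (counts) or within its exact binomial interval (shares and the median length), and 120 moved. The intervals of library shares are narrow, so small changes count as moved. Of 301 recomputed evenness factors of named unigenes, 183 stayed within their counting interval. FPKM as scale was chosen after seeing the data. No paired analysis was possible because leaf, stem and root have 1 library each, and for the same reason leaving out a replicate was not an option. Which scale is nearest to amounts per cell was not tested, and depth in leaf limits the set more than depth in stem or root. Causes of the moves below were not tested, apart from those that follow from the setting itself.

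TMM and DESeq2 scaling each gave 84 even unigenes, 79 of them members, and upper quartile scaling 80, of which 69. Percentages of counts outside the 100 most counted unigenes held by even unigenes are given in the order leaf, stem, root. Where another number of unigenes was left out, the percentages are of the counts outside those. They were 2.94%, 3.08% and 3.03% with TMM, 3.005% in root with DESeq2, 2.84% in root with upper quartile scaling and 3.06% in root with TPM without the most counted. Upper quartile scaling left 3 with all intervals including equality.

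Total counts as scale gave 47 even unigenes (16.2%), 43 of them members, with 6 highest in leaf and 7 in root, 22 with intervals within the limit, 2 with intervals including equality, and 1.65%, 1.47% and 1.67% of the counts. Deposited FPKM gave 46 (15.9%), 6 in leaf and 7 in root, 22 and 2, and 1.62%, 1.45% and 1.66%. Deposited TPM gave 33 (11.4%), with 4 highest in leaf, 16 in stem and 13 in root, 22 with intervals within the limit, 3 including equality, 1.24%, 0.987% and 0.828% of the counts, and a median length of 1552 nt. Total counts moved log2 ratios by 0.38 for stem over root and -0.46 for leaf over stem.

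With no unigene left out of the scale, 52 were even (13.9%), 8 highest in leaf and 8 in root, 26 with intervals within the limit and 2 including equality, at 5.28%, 5.37% and 3.94% of the counts. With 50 left out the shares were 3.05%, 3.21% and 3.19%. With 500 left out 16 were even (18.2%), 8 highest in leaf, 2 in stem and 6 in root, 10 within the limit and 2 including equality, at 0.447%, 0.4001% and 0.399%.

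Without a floor beyond 1 count, 9311 were even (20.1%), 2403 highest in leaf, 3101 in stem and 3807 in root, 428 within the limit and 8002 including equality, with a median length of 1494 nt, at 23.6%, 24.8% and 25.6%. A floor of 100 gave 647, with 153, 180 and 314 by highest organ, 280 within the limit and 180 including equality, at 8.84%, 9.34% and 9.64%. A floor of 1000 left 1 (14.3%), highest in leaf, with 0 in stem and 0 in root, 1 within the limit and 0 including equality, at 0.0734%, 0.0649% and 0.0661%. Thinning stem and root to the leaf total gave 69 of 166 (41.6%), 68 of them members, 10 highest in leaf, at 2.51%, 2.66% and 2.72%.

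The stricter limit of 5/4 left 28 (9.66%), with 7, 8 and 13 by highest organ and 10 by intervals, at 1.098%, 1.0999% and 1.14%. Of the original 84 members, 3 were within 5/4 on deposited TPM, and these were not among the 28. A limit of 2 gave 145 (50%), with 34, 40 and 71 by highest organ and 125 by intervals, at 4.97%, 5.37% and 5.503%. Of the original 84 members, 59 were within a factor of 2 on deposited TPM. Requiring whole intervals gave 52 (17.9%), 9 highest in leaf and 24 in root, at 1.89%, 1.996% and 1.997%.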
